A study of Mus musculus with 4 samples.

Results

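The GABA synthesis and transport genes are 5 genes that make, package and break down gamma-aminobutyric acid (GABA), the main inhibitory transmitter of the forebrain: Gad1, Gad2, Slc32a1, Abat and Aldh5a1. They were taken as every probe set (a group of array oligonucleotides that reports on 1 transcript) whose platform annotation names 1 of these genes and no other. This gave 11 of the 45137 probe sets that are not array controls, for 5 of 18193 named genes. The RNA came from neurospheres, which are floating clusters of cultured neural stem and progenitor cells with some differentiating progeny, grown from mouse forebrain at E12.5, in mid-gestation; the labels name the ventral telencephalon as the source. There was 1 wild-type RNA and 1 RNA labelled as knockout for E2f4, a transcription factor that represses cell-cycle genes together with pocket proteins. Each RNA was hybridised to 2 Affymetrix designs, MOE430A and MOE430B, so the 4 arrays hold 1 sample per genotype. The kind of E2f4 allele, the strain, the number of embryos and the passage of the cultures are not given in the sources used here. With 1 sample per genotype no difference below has a replicate check, so values are given without p-values or errors.

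GABA is made from glutamate by the glutamate decarboxylases GAD67, the product of Gad1, which is spread through the cell body and processes, and GAD65, the product of Gad2, which sits largely on synaptic vesicles. The vesicular transporter VGAT, encoded by Slc32a1, loads GABA and glycine into vesicles. In mitochondria the transaminase encoded by Abat turns GABA into succinic semialdehyde, and the dehydrogenase encoded by Aldh5a1 oxidises this to succinate, a route into the citric acid cycle known as the GABA shunt. In the embryonic forebrain Gad1, Gad2 and Slc32a1 mark GABAergic neurons and their late precursors, which arise in the ganglionic eminences of the ventral telencephalon, whereas Abat and Aldh5a1 are also used by other cells, glia among them.

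The promoter windows are shown because E2F4 acts on DNA near gene starts. Any part of these windows in the signals below was not tested. RefSeq windows of 300 bases on the build GRCm38.p6, from 250 bases before the gene start to 50 after it, were found for 4 of the 5 genes, and Abat had no entry. Gad1, Gad2 and Slc32a1 all lie on chromosome 2, at chr2:70561879-70562178, chr2:22622077-22622376 and chr2:158610508-158610807 on the + strand, and Aldh5a1 at chr13:24937612-24937911 on the - strand. Capitals mark matches to the E2F letters searched, and each window reads 5′ to 3′ in the direction of its gene.
Gad1: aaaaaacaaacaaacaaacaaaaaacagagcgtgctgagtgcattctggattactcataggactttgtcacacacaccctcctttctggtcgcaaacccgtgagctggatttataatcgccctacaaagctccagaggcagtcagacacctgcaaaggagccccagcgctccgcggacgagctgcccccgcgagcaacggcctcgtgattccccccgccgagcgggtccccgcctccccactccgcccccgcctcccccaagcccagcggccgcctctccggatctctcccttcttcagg
Gad2: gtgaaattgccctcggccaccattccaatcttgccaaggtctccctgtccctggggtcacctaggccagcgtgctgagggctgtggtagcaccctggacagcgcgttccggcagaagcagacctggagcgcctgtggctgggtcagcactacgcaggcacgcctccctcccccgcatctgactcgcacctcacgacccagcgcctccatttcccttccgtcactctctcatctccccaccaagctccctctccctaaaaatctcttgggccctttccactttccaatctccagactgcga
Slc32a1: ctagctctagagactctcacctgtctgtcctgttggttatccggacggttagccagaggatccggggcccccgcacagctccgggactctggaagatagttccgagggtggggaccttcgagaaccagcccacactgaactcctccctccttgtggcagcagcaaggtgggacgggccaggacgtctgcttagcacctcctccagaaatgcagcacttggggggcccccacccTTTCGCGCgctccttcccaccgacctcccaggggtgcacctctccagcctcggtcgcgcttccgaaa
Aldh5a1: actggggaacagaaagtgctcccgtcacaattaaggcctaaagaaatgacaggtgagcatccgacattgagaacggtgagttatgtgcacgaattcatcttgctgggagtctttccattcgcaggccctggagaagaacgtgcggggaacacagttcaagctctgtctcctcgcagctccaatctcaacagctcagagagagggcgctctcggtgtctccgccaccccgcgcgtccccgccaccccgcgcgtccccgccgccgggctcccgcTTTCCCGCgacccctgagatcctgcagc
The letters searched on both strands were TTTCCCGC and TTTGGCGC for E2F, TTTGAA for the cell-cycle element CHR, TAATTA for the homeodomain core and CAGCTG for an E-box. TTTCGCGC and TTTGCCGC, further forms of the E2F letters, were added after the windows had been seen. The Aldh5a1 window held TTTCCCGC, starting 22 bases after the gene start, and 1.07% of all 32851 windows held it. The Slc32a1 window held TTTCGCGC, 1 of the added forms, starting 17 bases before the gene start, and 0.323% of windows held it. The windows of Gad1 and Gad2 held none of the letters searched, and no window held more than 1 match, so no matches overlapped. Any of the E2F forms stood in 2.26% of windows, TTTGAA in 17.9%, TAATTA in 5.29% and CAGCTG in 16.3%. The windows were between 60.0% and 63.3% G and C, against a median of 52.7% over all windows. A match is a run of letters in the reference, and binding of E2F4 was not measured here.

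Signals are MAS5 values on a linear scale, and ratios are log2 of knockout over wild type within a design, centred on the design's median ratio. Probe sets were taken as measured if neither array fell under a floor, the median signal of its design, which was 736 on MOE430A and 942 on MOE430B. The E2f4 probe set read 1812 in wild-type neurospheres and 1535 in those labelled knockout, and its place relative to the deleted part is not given, so it does not check the label. The 2 samples also differed in Xist, the RNA that silences 1 X chromosome in female cells, at 8979.6 and 1178 on its brightest probe set; the part of sex in the values below was not tested. Nkx2-1, a defining gene of the medial ganglionic eminence, read 1026 in wild-type and 796 in knockout neurospheres, a log2 ratio of -0.36; both signals were above the floor, the knockout one at 1.08 times, and without detection calls this does not show how far the label ventral telencephalon holds. The log2 ratios of all measured probe sets had an SD of 0.294 on MOE430A and 0.432 on MOE430B. Among the 99 probe sets that both designs measured, the 2 ratios differed with an SD of 0.308, and probe sets of the same gene had a pooled SD of 0.333. These spreads come from probe sets within the same pair of RNAs and do not measure the spread between cultures.

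All 4 measured genes had lower signals in the knockout sample, with gene values between -0.63 and -0.53 on the log2 scale. Gad2 was 1.55-fold lower, Slc32a1 1.46-fold, Aldh5a1 1.45-fold and Gad1 1.45-fold, where a gene value is the mean over its measured probe sets. Abat was under the floor in both samples and has no fold. Of the 11 probe sets, 5 were measured, 1 reached the floor only in the wild type and 5 were below it in both samples, so these values rest on fewer than 50% of the probe sets. Lower signals in whole cultures can come from fewer GABAergic cells or from less RNA per cell, and these cannot be told apart here.

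**Figure D1:**
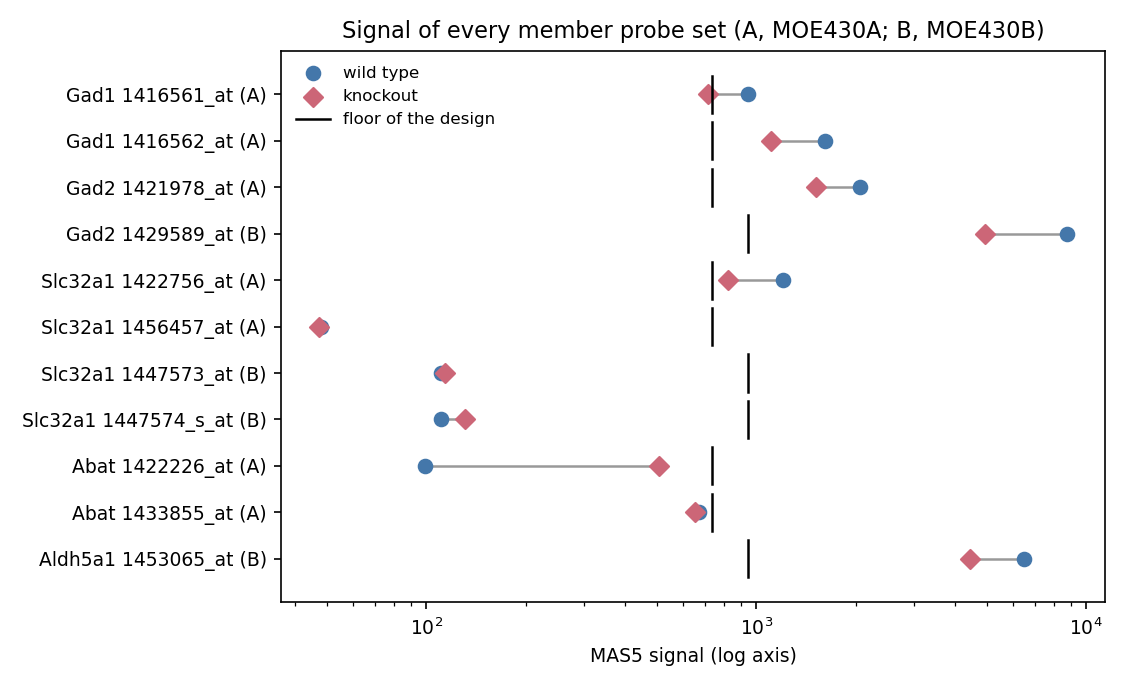
MAS5 signal of each of the 11 probe sets on a log axis, wild type as circles and knockout as diamonds, with a short vertical line at the floor of the design. The 5 measured probe sets of Gad1, Gad2, Slc32a1 and Aldh5a1 lie right of the floor with the knockout to the left of the wild type, and 3 Slc32a1 probe sets and both of Abat lie left of it.

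Among the enzymes that make GABA, the measured Gad1 probe set, 1416562_at, read 1611 in wild-type and 1111 in knockout neurospheres, a log2 ratio of -0.53. The second Gad1 probe set, 1416561_at, read 941 and 713, so the knockout lay just under the floor of 736, and it was at least 1.28-fold lower there. Both probe sets of GAD67 thus read lower in the knockout sample, both on MOE430A and from the same annotated transcript sequence. The measured Gad1 signals were only 2.19 and 1.51 times the floor. Of the 1000 measured MOE430A probe sets nearest to it in mean signal, 5.90% had a ratio as low. The central 95% of these neighbours ran from -0.65 to 0.66, with an SD of 0.344, and probe sets with either array under the floor are not among them.

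Gad2, the gene of the vesicle-bound GAD65, was the 1 member measured on both designs. On MOE430A, probe set 1421978_at read 2060.5 in wild-type and 1518 in knockout neurospheres, a log2 ratio of -0.44. On MOE430B, probe set 1429589_at read 8772 and 4947, a log2 ratio of -0.82. The designs gave the same side and different sizes, 1.35-fold and 1.77-fold lower, and the gap of -0.39 between them compares with the SD of 0.308 between designs for shared probe sets. Among the 1000 measured probe sets nearest in mean signal, 6.70% on MOE430A and 1.0% on MOE430B were as low. The MOE430B probe set, at 9.32 times the floor in the wild type and 5.25 times in the knockout sample, was the farthest above its floor of all 11, and its ratio lay outside the central 95% of its neighbours, which ran from -0.66 to 0.67.

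The vesicular transporter gene Slc32a1 had 4 probe sets, of which 1 was measured. Probe set 1422756_at read 1205 in wild-type and 821 in knockout neurospheres, a log2 ratio of -0.55, and the knockout signal was 1.12 times the floor. Of its 1000 neighbours in signal among measured probe sets, 6.60% were as low. Probe sets whose knockout signal fell under the floor are not among these neighbours, which limits this share so near the floor. The other 3 probe sets read far below the floor in both samples. The signals were 47.9 in wild-type and 47.2 in knockout neurospheres for 1456457_at on MOE430A, 110.9 and 114 for 1447573_at and 110.9 and 131 for 1447574_s_at on MOE430B. These 3 do not show the difference seen in the measured probe set, and they lie at 0.139 times the floor or less, so the Slc32a1 value rests on 1 probe set near the floor.

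The genes of GABA breakdown differed in how well they could be read. Aldh5a1, the semialdehyde dehydrogenase, had 1 probe set, 1453065_at on MOE430B, which read 6489 in wild-type and 4460.4 in knockout neurospheres, a log2 ratio of -0.54. The signal was well above the floor in both samples, at 6.89 and 4.74 times, and 5.70% of its neighbours in signal were as low. Because ratios scattered more on MOE430B, 9.57% of all measured probe sets there were as low as Aldh5a1. Abat, the transaminase 1 step before it, read 669 in wild-type and 653 in knockout neurospheres on 1433855_at, and 99.4 and 507 on 1422226_at. All 4 signals were below the floor of 736. The probe set nearer the floor read nearly the same in both samples, the dimmer one read higher in the knockout sample, and no fold is given for either.

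Read against the whole series, the measured genes sat in the lower tail of the ratios without being extreme. Of 10171 measured genes, 50.2% were lower in the knockout sample at all, against 4 of 4 here. At least 1.5-fold lower were 3.86% of genes and, here, Gad2 alone; at least 2-fold lower were 0.482% of genes and none of the 4. On the other side, 3.51% of genes were at least 1.5-fold and 0.531% at least 2-fold higher, and none of the 4 was. A value as low as that of Gad1, the least lowered of the 4, was found in 4.68% of genes, and one as low as that of Gad2 in 3.14%. These shares depend on the floor. With the floor at the 30th percentile they were 10.3% for Gad1 and 6.04% for Gad2. With no floor they were 19.0% and 14.4%, and the share for Slc32a1, with its dim probe sets included, was 42.8%. At the 70th percentile the share for Gad2 was 1.80%, and Gad1 was not measured. By probe set, at least 1.5-fold lower were 2.70% on MOE430A, where none of the 3 measured GABA probe sets passed, and 8.09% on MOE430B, where 1 of 2 did. The median of the 4 genes was -0.54 and that of all genes was -0.0013. The 4 values lay within 0.0979 of each other, which is less than the pooled SD between probe sets of the same gene, so no order among Gad1, Gad2, Slc32a1 and Aldh5a1 can be read from them.

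**Figure D2:**
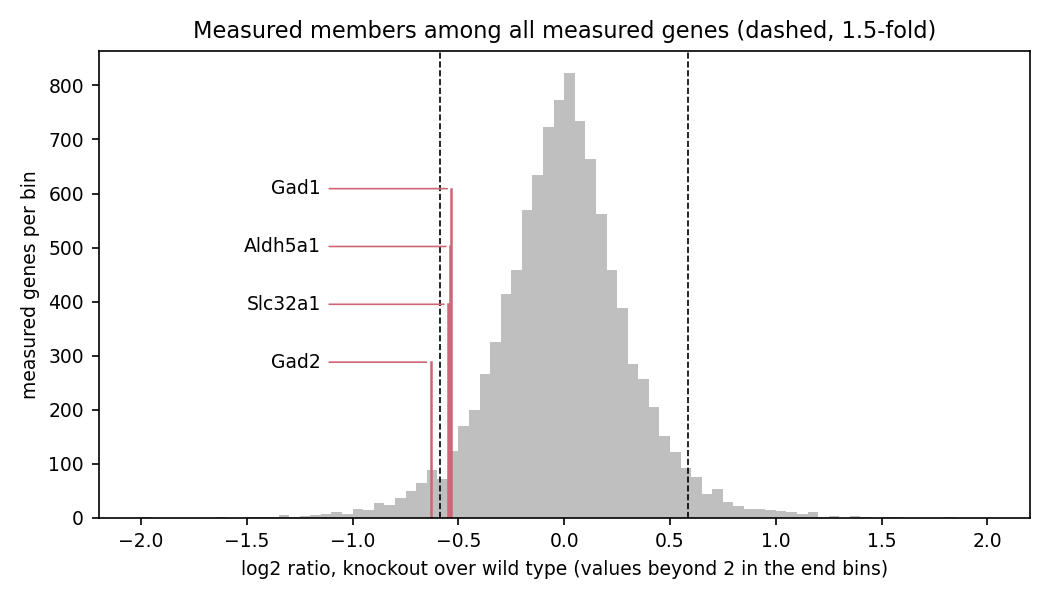
Histogram of knockout over wild-type log2 ratios for 10171 measured genes, with the 4 measured GABA genes as vertical lines and dashed lines at 1.5-fold. Gad2 lies just left of the 1.5-fold line at -0.63, and Slc32a1, Aldh5a1 and Gad1 lie just right of it between -0.55 and -0.53.

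The rest of the GABA system was followed through lists of the uptake carriers, the supply of glutamate, the enzymes around the shunt, the putrescine route and the vesicle. The carriers that take GABA up from outside the cell gave little signal. Slc6a11, Slc6a12 and Slc6a13, the genes of GAT-type and betaine carriers, were below the floor on every probe set in both samples. The 1 measured carrier of the list, Slc6a6, which mainly moves taurine, had a value of -0.36 from probe sets at -0.46 and -0.26.

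Genes of glutamate supply, upstream of the GAD enzymes, lay near 0 or on the higher side. Of 15 listed genes 11 were measured, of which 3 were lower and 8 higher, and the median was 0.087. Slc1a5, which exchanges glutamine across the cell membrane, was the 1 gene past 1.5-fold, at 1.94-fold higher with signals of 1134 in wild-type and 2202 in knockout neurospheres. Its value rested on 1 probe set on MOE430B, the other being below the floor at 161 and 712. The glutaminase genes are not analysed here.

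Downstream of Aldh5a1, the enzymes that take up succinate and those that feed 2-oxoglutarate and cofactor lay close to 0, with 3 of 8 measured genes lower and a median of 0.051. Suclg2, a subunit of succinyl-CoA ligase, was farthest at 0.50 from probe sets at 0.26 and 0.74, and Ogdh, a subunit of the 2-oxoglutarate dehydrogenase complex, followed at 0.094. The putrescine route, a second way to GABA that does not need GAD, had 2 of 6 measured genes lower and a median of 0.18. Aldh9a1, which oxidises aminobutyraldehyde to GABA, was on the lower side at -0.42, but its probe sets read -0.68 and -0.17. Aldh2, another aldehyde dehydrogenase, was at 0.30.

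At the synaptic vesicle, transporters for different transmitters lay on opposite sides. Slc17a6, the vesicular glutamate transporter VGLUT2, read 1777 in wild-type and 2559 in knockout neurospheres on 1 probe set and 986 and 1304 on the other, a gene value of 0.47. Slc17a7, the gene of VGLUT1, read 1360.0 and 1729, a value of 0.35 from 1 probe set at 1.44 and 1.84 times the floor. The log2 ratio of Slc32a1 minus that of Slc17a6 was -1.02, and minus that of Slc17a7 it was -0.90. Of the 4 measured transporters of other transmitters 3 were higher and 1 was lower, with a median of 0.30 that turned to -0.039 with the floor at the 70th percentile. Among the higher ones was Slc6a9, a glycine carrier of the plasma membrane and not of the vesicle, at 0.24 from probe sets at -0.041 and 0.53. Vesicle proteins and enzymes that work with GAD and VGAT, among them proton pump subunits, had 7 of 10 measured genes lower and a median of -0.21. Zdhhc13, a palmitoyltransferase of the family that anchors GAD65 to membranes, was the 1 gene of that list past 1.5-fold, at 1.71-fold lower with signals of 4200.2 and 2455 on 1 probe set. Zdhhc17, of the same family, was near 0 at -0.047, from probe sets at -0.71, 0.016 and 0.55.

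**Figure D3:**
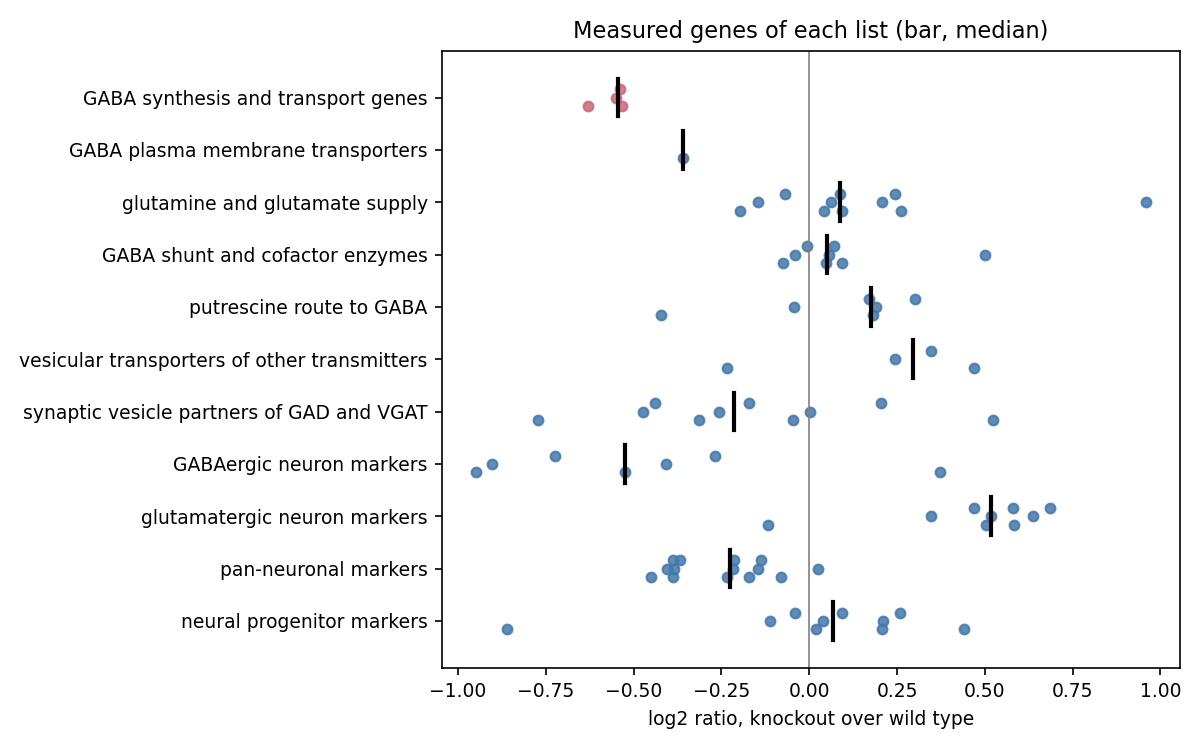
Log2 ratio of knockout over wild type for each measured gene, by list, with a bar at the list median; 1 point is 1 gene. The GABA synthesis and transport genes and the GABAergic neuron markers have medians of -0.54 and -0.52, the glutamatergic neuron markers have one of 0.52, and glutamate supply and shunt enzymes lie around 0.

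Among markers of the cells that use GABA, most measured ones also read lower in the knockout sample. Of 12 markers of GABAergic neurons 7 were measured, 6 of them lower, with a median of -0.52. Lhx6 and Sst reached the floor only in the wild type, so they have bounds and are not in the median. Sst read 2500 in wild-type and 124 in knockout neurospheres, at least 3.40-fold lower. The 2 Lhx6 probe sets read 2678 and 597, at least 3.64-fold lower, and 902 and 539, at least 1.23-fold. No unmeasured marker of the list reached the floor only in the knockout sample. The signal summed over all 13 probe sets of the list on MOE430A was 27147 in wild-type and 16579.7 in knockout neurospheres, and over the 6 measured ones it was 20016 and 14737. On MOE430B the sum over all 7 probe sets was 4671 and 2868, and the 1 measured probe set read 1422 and 1071. Dlx5, a homeobox gene of the ganglionic eminences, read 3709.5 and 1916, and Npy, a neuropeptide of interneurons, 1788 and 955. None of these markers was listed at 0, and their part in the values of Gad1, Gad2 and Slc32a1 was not tested.

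Markers of neurons in general were lower by less. All 14 pan-neuronal markers were measured and 13 were lower, with a median of -0.23, and the signal summed over all their probe sets was 185773 and 161497 on MOE430A and 75868 and 60655 on MOE430B. The neurofilament gene Nefl was at -0.45 and Nsg2, a vesicle trafficking protein of neurons, at -0.41. The member's log2 ratio minus that median was -0.31 for Gad1, -0.41 for Gad2, -0.32 for Slc32a1 and -0.31 for Aldh5a1. All but that of Gad2 were smaller than the SD between probe sets of a gene, 0.333. Markers of glutamatergic neurons lay on the other side, with 8 of 9 measured genes higher, a median of 0.52 and signals summed over all probe sets of 22215 and 31139.7 on MOE430A and 11152 and 16454 on MOE430B. Eomes, a marker of cortical intermediate progenitors, was at 0.69 and Fezf2, which specifies deep-layer neurons, at 0.64. Progenitor markers were near 0, with 3 of 10 lower and a median of 0.066, and Hes5, a Notch target, and Pax6, a dorsal progenitor factor, stood at -0.86 and 0.44. The Hes5 value is a mean of probe sets at -1.48 and -0.24.

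Other cell types were read from few measured markers. Astrocyte markers, of interest because glia also express Abat and Aldh5a1, had 4 of 9 genes measured, 1 lower and 3 higher, with a median of 0.046; Aqp4, a water channel, was at -0.30 and Slc1a3, a glial glutamate carrier, at 0.21. Oligodendrocyte lineage markers had 3 of 9 measured, all lower, with Sox10 at -0.66 and Cnp at -0.43. Erythroid markers had 3 of 7 measured, all lower, led by the globins Hbb-bh1 at -0.88 and Hba-x at -0.51. Their signal summed over all probe sets was 279844 and 215351 on MOE430A. Much of that sum came from the globin Hbb-y, the third gene, at -0.33, whose brightest probe set read 89828 and 69939. Microglia markers had 2 of 7 measured, Laptm5 at -0.63 and Csf1r at -0.25, both lower. Endothelial markers had 3 of 7 measured, 2 lower and 1 higher, with Egfl7 and Eng both at -0.39 and Kdr, the third, at 0.38. Flt1 was not measured, but 1 of its 4 probe sets, 1440926_at, reached the floor only in the knockout sample. It read 244 in wild-type and 2226 in knockout neurospheres, at least 2.36-fold higher. Among the other markers here, Gfap, Aldoc, Gja1, Slc1a2, Slc1a3, Pdgfra, Mbp and Laptm5 each had a probe set that did so. Olig2 and Cnp each had 1 that reached it only in the wild type, and such probe sets are not in the values above. The part of these cells in the values of the GABA genes was not tested.

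Genes with a difference most like that of the GABA genes were sought among the 1666 other genes with at least 2 measured probe sets, all on the same side of 0. Likeness was the absolute difference between a gene's log2 ratio and the mean of Gad1, Gad2 and Slc32a1, -0.57, over the 2 samples. The nearest were Vps37c, 9330159F19Rik, Nrxn2, Dtx4 and Nup214, with values between -0.58 and -0.56. The 2 probe sets of Vps37c read -0.70 and -0.44, while those of Nrxn2, a presynaptic adhesion protein, read -1.14 and -0.0089. Probe sets of Dtx4 and Nup214 also differed widely, at -1.02 and -0.11 and at -1.04 and -0.086. Those of 9330159F19Rik read -0.87 and -0.28. In Nrxn2, Dtx4, Nup214 and 9330159F19Rik neither probe set was near -0.57, and only the mean of the 2 was. With 2 samples a pattern is a single ratio, and many genes share it.

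The lower values of Gad1, Gad2 and Aldh5a1 held under every processing alternative that measured them, and Slc32a1 kept its side but not its size. Some of these outcomes were fixed in advance, and all alternatives reuse the same pair of RNAs. Gad1, Slc32a1 and Aldh5a1 each had 1 measured probe set. Using the brightest probe set, dropping suffixed probe sets or using that probe set's design alone could not change their values. Gad2 ranged from -0.82 to -0.44 over 11 alternatives, Aldh5a1 from -0.54 to -0.46 over 10 and Gad1 from -0.54 to -0.28 over 9. Slc32a1 ranged from -0.55 to -0.073 over 9, the small values arising where the 3 probe sets far below the floor entered its mean. Gad1 and Slc32a1 were no longer measured once the floor was raised to the 70th percentile.

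**Figure D4:**
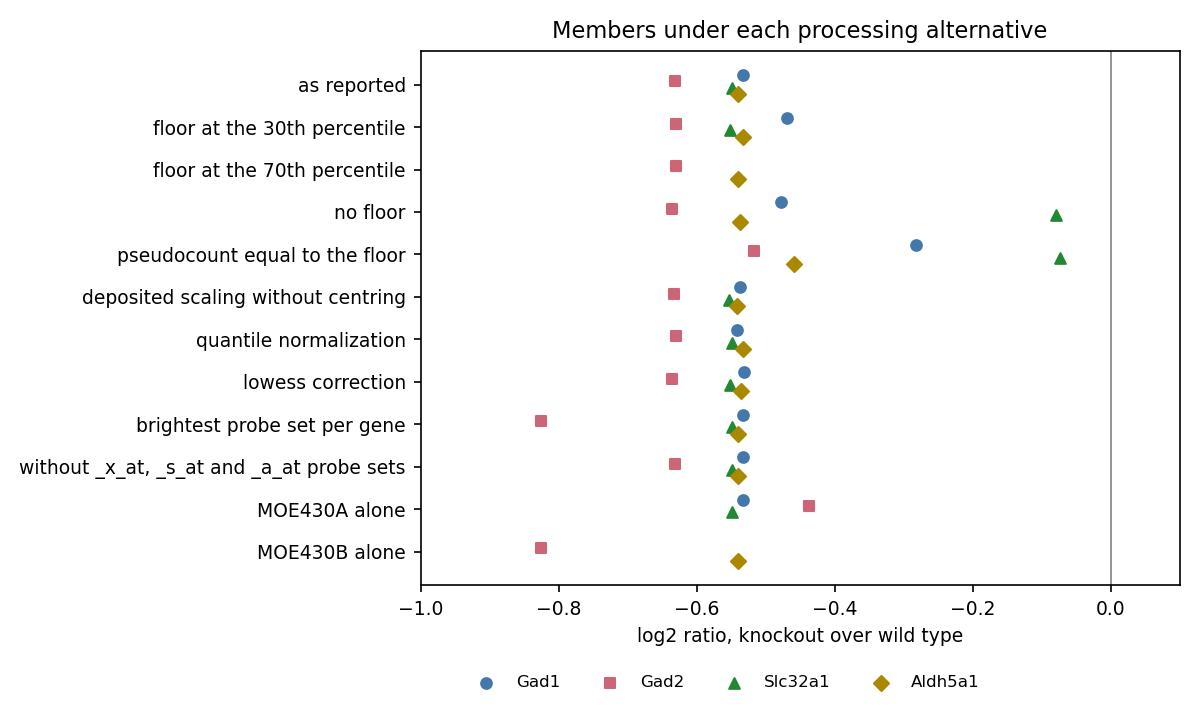
Log2 ratio of knockout over wild type for Gad1, Gad2, Slc32a1 and Aldh5a1 as reported and under each of 11 alternatives, with a line at 0. All points lie left of 0; Slc32a1 moves to -0.079 with no floor and to -0.073 with a pseudocount, and Gad2 lies at -0.82 where its MOE430B probe set is used alone.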

How the data were processed

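Total RNA of both neurosphere samples was labelled without amplification and run on MOE430A and MOE430B. The deposited values are linear signal intensities made by the authors with MAS5 (version not given in the sources used here), per the submitters' processing notes. Detection calls were not used. Each array's mean signal after trimming 2% at each end was close to 1500 (1499.8 to 1499.9). Per the file headers, wild type and knockout of each design shared a hybridisation day, and the 2 designs had different days.

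From these, log2 ratios of knockout over wild type were computed per probe set within each design, without 64 control probe sets per design, and centred on the median (-0.0033 and -0.0014). Both arrays had to reach the design's median signal, which left 10399 of 22690 and 9528 of 22575 probe sets. Where 1 array did, its signal over the floor gave a bound. Names came from the platform annotation, checked through gene identifiers against RefSeq GRCm38.p6, which matched 34863 of 35067 singly named probe sets and changed none. No test across samples was possible, and the small number of arrays limits precision. A fold of 1.5 or 2 served as a size rule.

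The members and gene lists were chosen with earlier results of these data known. Genes named were the 5 members, list genes at least 1.5-fold different or else the 2 farthest from 0, the 2 farthest of each marker list, and the 5 nearest in ratio. E2f4, Xist, Nkx2-1, Kdr, Slc6a11, Slc6a12, Slc6a13, Slc6a9, Zdhhc17, Lhx6, Sst, Hbb-y, Flt1, Gfap, Aldoc, Gja1, Slc1a2, Pdgfra, Mbp and Olig2 fall outside this rule. All but E2f4 were chosen with their values in view. The ratio step was tested on simulated data. The planned comparison of the GAD proteins was not run, because no protein sequences were used here. Python 3.11.15, numpy 2.4.6, pandas 2.3.3, statsmodels 0.14.6 and matplotlib 3.10.9 were used.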

Additional observations from a re-analysis of the deposited data

How the results depend on the processing

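The 11 alternatives were floors at the 30th and 70th percentile of signals, no floor, the floor as a pseudocount, no centring, quantile normalization, lowess (span 0.3), the brightest probe set alone, no _x_at, _s_at or _a_at probe sets, and each design alone. Of 219 values recomputed, 207 moved by less than the SD between probe sets of a gene, or for counts by at most 1.5 times, 12 moved by more, and 5 list medians changed sign. Slc32a1 moved to -0.079 with no floor and to -0.073 with a pseudocount, where its 3 dim probe sets entered. The count of members at least 1.5-fold lower, 1 as reported, was 0 with a pseudocount and 0 on MOE430A alone. Only 2 members were measured, both lower, with the floor at the 70th percentile and, likewise 2, on MOE430B alone. Among list medians, shunt enzymes moved to 0.43 on MOE430B alone, GABAergic neuron markers to -0.96 with no floor, oligodendrocyte markers to -0.048 with a pseudocount and transporters of other transmitters from 0.30 to -0.039, a change of sign, with the higher floor. The other changes of sign were in medians near 0: shunt enzymes were at -0.071 with no floor, -0.0029 with a pseudocount and -0.0061 without the suffixed probe sets, and astrocyte markers at -0.11 without the last. Abat gained a value in 3 alternatives, -0.034 with the floor at the 30th percentile, 1.15 with no floor and 0.27 with a pseudocount. No paired analysis was possible because each genotype has 1 sample. Leaving out a replicate was not possible for the same reason.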
